A study of Bos taurus with 6 samples.

Results

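The 10 genes described here encode the integrin subunits with which fibroblasts hold on to collagen, laminin, fibronectin and other matrix proteins: ITGA1, ITGA3, ITGA5, ITGA6, ITGA11, ITGAV, ITGB1, ITGB3, ITGB5 and ITGB8. They were picked by gene symbol, and all 10 were present among the 17663 genes of the deposited expression table. Poly(A) RNA of bovine fetal fibroblasts (bEFs) was sequenced from 3 fetuses carrying the fat-1 transgene (FT) and from 3 wild-type Luxi fetuses (WT), all at 50 to 60 days of gestation. The fat-1 gene comes from Caenorhabditis elegans and encodes a desaturase that turns n-6 into n-3 fatty acids. Each library came from cultured cells of a separate fetus, grown from the tissue left once head, limbs, bones and inner organs had been taken away. Other cell types of that tissue can therefore be present. The cells were passaged when nearly confluent, and the passage used for RNA is not given. The extraction notes of the sample records speak instead of adipose RNA. The sources used here do not give the promoter that drives the transgene or the breed of the FT fetuses. RNA was measured, and protein, the assembled receptor and adhesion were not.

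Integrins are receptors in the cell membrane made of an alpha and a beta chain. The alpha chain sets much of which matrix protein is bound, and the tail of the beta chain recruits talin, kindlin and the adhesion complex that links the receptor to actin. In fibroblasts ITGB1 is the shared partner of most alpha chains, while ITGAV can join any of several beta chains, and the receptors carry cell attachment, migration, matrix assembly and the release of active TGF-beta.

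Sequencing gave 63366834 counts in FT_1 and 48167642 and 54204446 in FT_2 and FT_3. The WT libraries WT_1, WT_2 and WT_3 held 69777641, 51310741 and 54271927 counts. Levels are given as FPKM, fragment counts scaled to gene length and library size, which allow genes of different length to be set side by side. Fold changes are log2 values of FT over WT from edgeR on the counts, and a gene passed the test at a Benjamini-Hochberg adjusted p under 0.05 over all genes tested.

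The fibroblast label was checked against 11 marker genes, all of which had RNA in every library. Their summed FPKM was 8603 in FT_1 and 20090 and 19380 in FT_2 and FT_3, against 21670, 21230 and 21470 in the WT libraries. VIM, an intermediate filament gene, was the most abundant of them in the WT libraries and FT_3, and DCN in FT_1 and FT_2 (1803.48 and 4091.78 FPKM). VIM was at 1243.94 FPKM in FT_1, 3850.19 in FT_2, 4170.95 in FT_3, and at 7890.61, 8177.52 and 7311.82 in the WT libraries. The receptor gene PDGFRA was the 1 marker of the 11 that passed the test (log2 fold change 1.06, adjusted p = 0.0053, every FT library above every WT library). Of all genes 20.1% rose and 18.9% fell. Without FT_1 5 markers rose and 2 fell (30.6% and 31.5% of all genes).

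FT_1 stood apart from the other FT libraries. The biological coefficient of variation, the spread of libraries beyond counting error, was 8.25% between FT_2 and FT_3 and 9.99% to 13.4% between WT libraries, but 56.9% between FT_1 and FT_2 and 57.6% between FT_1 and FT_3. Of 13482 genes tested, 1246 (9.24%) were over 2-fold higher in FT_1 than in both other FT libraries and 1298 (9.63%) were over 2-fold lower. Among the 10 integrin genes, 5 were higher in FT_1 by that measure (ITGA3, ITGA6, ITGA11, ITGB3 and ITGB8) and 1 was lower (ITGB5). The fold change of each of the 10 integrin genes is therefore given with and without FT_1.

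RNA of epithelial marker genes was also concentrated in FT_1. The 7 epithelial markers summed to 435.5 FPKM in FT_1 and 16.1 and 15.8 in FT_2 and FT_3, and to 10.2, 7.92 and 14.2 in the WT libraries. KRT5, a keratin of basal epithelial cells, was the most abundant of them in FT_1, at 171.54 FPKM in FT_1, 2.57 in FT_2, 1.63 in FT_3 and 0 in every WT library. In the other 5 libraries CDH1, the E-cadherin gene, was the most abundant, at 7.11 and 8.41 FPKM in FT_2 and FT_3 and 10.03, 7.83 and 13.86 in the WT libraries, with 36.32 in FT_1. FT_1 was the highest library for 6 of the 7 markers, and 5 of them (KRT5, KRT8, KRT14, KRT18 and EPCAM) were at 0 in all WT libraries. EPCAM, a defining epithelial marker, had 0.57 FPKM in FT_1 and 0 in the other libraries. The part of these cells or transcripts in the integrin results was not tested, and fewer cells of a type cannot be told apart from less RNA per cell in such bulk samples. Of the 6 epithelial markers tested, CLDN4, a tight junction gene, was the 1 that passed (3.65, 3.39 and 3.82 FPKM in FT_1 to FT_3 and 0.20, 0.09 and 0.33 in the WT libraries, log2 fold change 4.22, adjusted p = 0.00184). Without FT_1 4 keratin genes passed too, each with 0 counts in every WT library and 19 to 319 in FT_2 and FT_3. Of all genes 20.1% rose with all libraries and 30.6% without FT_1.

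**Figure D1:**
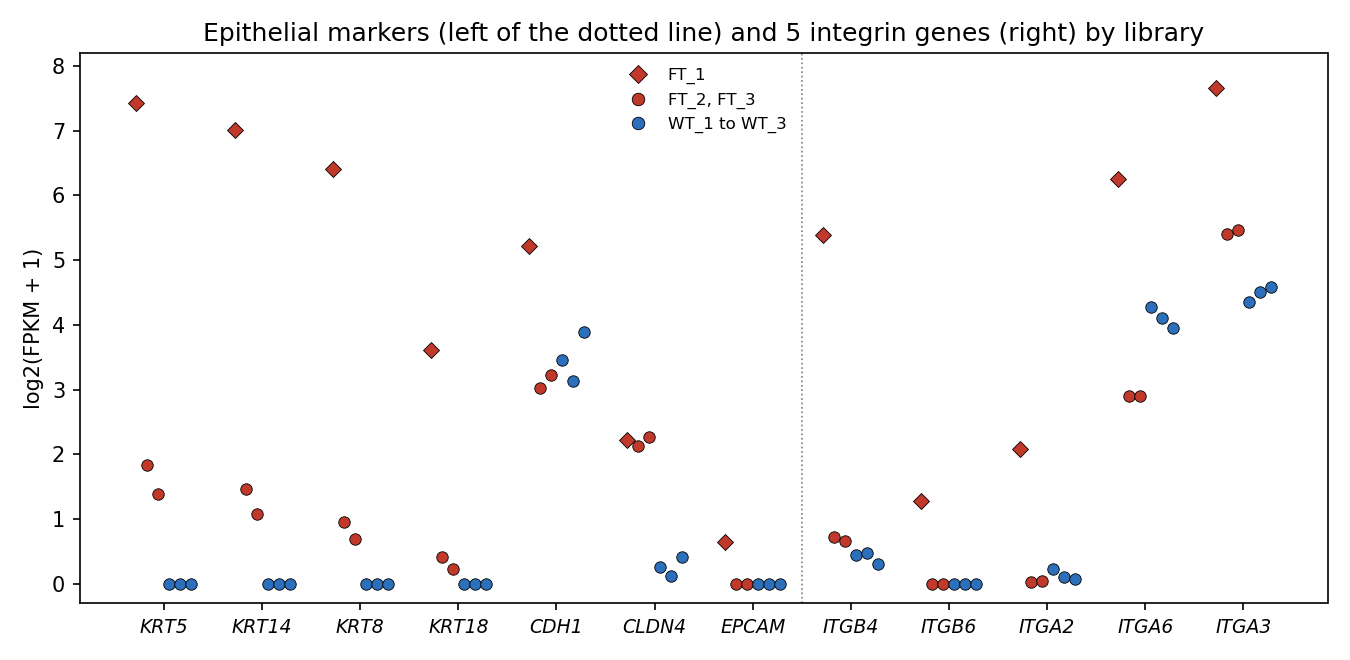
Log2 of FPKM plus 1 (vertical axis) of 7 epithelial markers and 5 integrin genes in each library, with red diamonds for FT_1, red circles for FT_2 and FT_3 and blue circles for the WT libraries. KRT5 reached 171.54 FPKM in FT_1 and was at 0 in every WT library, and ITGB4, ITGA6 and ITGA3 were also highest in FT_1. Other genes highest in FT_1, such as ITGA11, ITGB3, ITGB8 and FN1, are not drawn.

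The comparison of FT with WT asks what differs in cells that carry fat-1. Across all genes, 2714 rose (20.1% of 13482) and 2547 fell (18.9%), and without FT_1 4215 rose (30.6% of 13765) and 4337 fell (31.5%). The split between rises and falls depended on scaling, with 51.6% of passing genes higher in FT under TMM, 37.6% (2049 up, 3399 down) with total counts alone and 34.0% (1837 up, 3573 down) with limma on FPKM. The median log2 fold change of all genes was 0.03 under TMM, −0.12 with total counts alone and −0.12 with limma on log2(FPKM + 1). Leaving out WT_1 gave 3047 passing genes and leaving out WT_2 gave 3183, against 5261 with all libraries.

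Of the 10 integrin genes, all of which were tested, 4 rose in FT cells (ITGA1, ITGA3, ITGA11 and ITGB1), beside 20.1% of all genes. In edgeR 0 fell, beside 18.9% of all genes, and 0 were lower at an unadjusted p under 0.05. DESeq2 also called 0 lower and 5 higher, beside 2979 lower and 3251 higher of 17263 genes. With limma on FPKM 2 were higher and 1 lower, ITGA5, beside 1837 higher and 3573 lower of 12247 genes. Without FT_1, 6 rose (ITGA1, ITGA3, ITGA11, ITGB1, ITGB5 and ITGB8), 3 fell (ITGA5, ITGA6 and ITGB3), and ITGAV did not pass. Of all genes, 30.6% rose and 31.5% fell in that fit. The median log2 fold change of the 10 was 0.53 (all genes 0.03), and 0.40 without FT_1 (all genes −0.02). Leaving out another library left 4 passing members without FT_2 (4085 of 13836 genes) and 3 without FT_3 (4149 of 13829). It left 1 without WT_1 (3047 of 13804), 1 without WT_2 (3183 of 13847) and 2 without WT_3 (3537 of 13849). The FPKM of the groups did not overlap for 6 of the 10, against 58.7% of all genes tested, and for 9 of the 10 without FT_1, against 77.2%. In TMM-scaled counts, a scale added after seeing the data, the groups did not overlap for 5 of the 10, against 57.7% of all genes, since ITGA5 then overlapped. By the threshold of the study's methods (a log2 fold change over 1 with p under 0.05 before adjustment), 3 were up-regulated, ITGA3, ITGA11 and ITGB8, beside 10.2% of all genes, and without FT_1 4 were past it, ITGA3 and ITGA11 up-regulated and ITGA6 and ITGB3 down-regulated (23.3% of all genes in either direction).

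**Figure D2:**
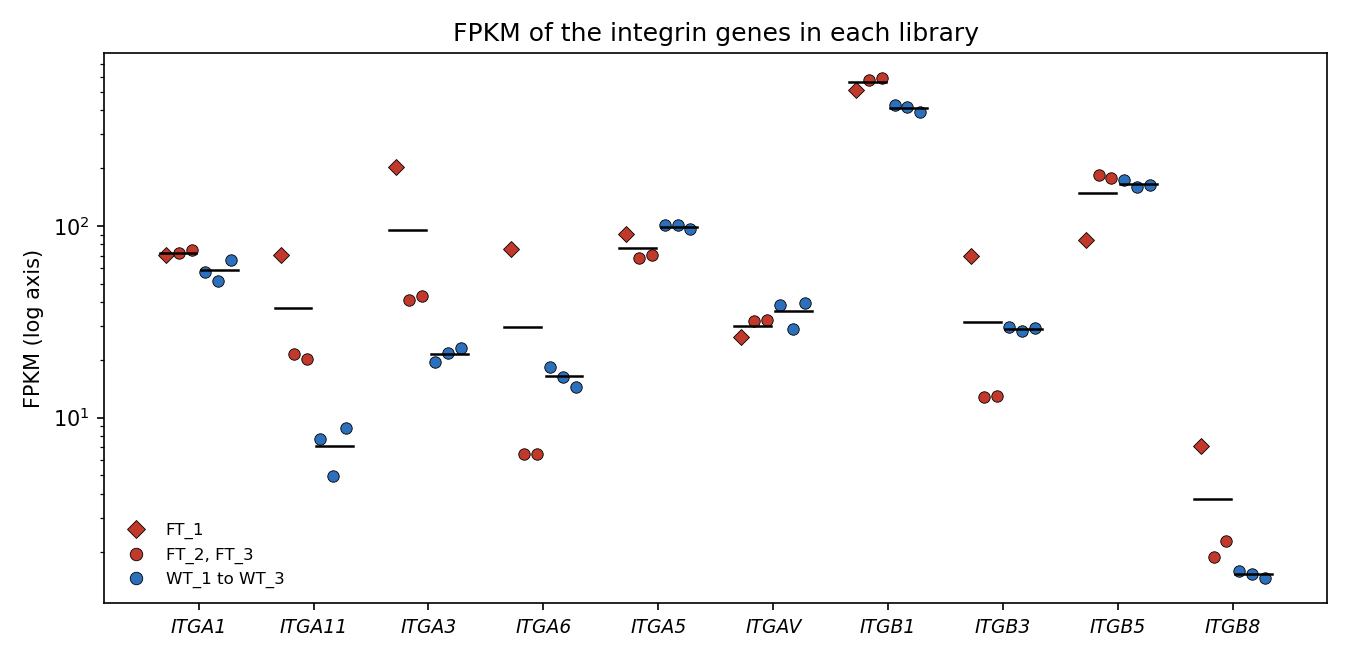
FPKM of the 10 integrin genes (vertical axis, log scale) in each library, with red diamonds for FT_1, red circles for FT_2 and FT_3, blue circles for WT and black lines for group means. FT_1 lies far above FT_2 and FT_3 for ITGA6 (75.68 against 6.46 and 6.48), ITGB3, ITGA3, ITGA11 and ITGB8, and below them for ITGB5.

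ITGA1 and ITGA11 encode the alpha chains of the collagen receptors, ITGA1 with a preference for basement membrane collagen and ITGA11 for the fibrillar collagens of connective tissue. ITGA11 (ENSBTAG00000008380, chromosome 10, 15129322 to 15262276) was at 70.54 FPKM in FT_1 and 21.46 and 20.17 in FT_2 and FT_3, and at 7.69, 4.94 and 8.79 in WT_1, WT_2 and WT_3. Every FT library lay above every WT library, and FT_1 was 3.39 times the mean of the other FT libraries. The mean was 37.4 ± 28.7 FPKM in FT cells and 7.14 ± 1.98 in WT cells (SD, n = 3), a 5.24-fold difference that was 2.92-fold without FT_1. ITGA11 rose (edgeR log2 fold change 2.54, SE 0.56, 95% interval 1.17 to 3.90, adjusted p = 0.0156), and without FT_1 the log2 fold change was 1.71 (SE 0.18, interval 1.3 to 2.12). Its adjusted p was 0.0642 without WT_1, 0.0696 without WT_2 and 0.0525 without WT_3, so the call was lost when any WT library was left out, while the log2 fold change stayed between 1.71 and 2.83 in the 15 settings run (adjusted p 1.33e-06 to 0.0696).

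ITGA1 (ENSBTAG00000016525, chromosome 20, 26108411 to 26283573) was at 70.83, 71.88 and 74.45 FPKM in FT_1, FT_2 and FT_3 and at 57.64, 51.59 and 66.51 in WT_1, WT_2 and WT_3. FT_1 was close to the other FT libraries here, and the groups did not overlap. The means were 72.4 ± 1.86 and 58.6 ± 7.5 FPKM (SD, n = 3), 1.24-fold higher in FT cells. ITGA1 rose (edgeR log2 fold change 0.46, SE 0.12, adjusted p = 0.0231), with 0.49 (SE 0.10) without FT_1. The call was the least steady of the 4, with an adjusted p of 0.0651 without FT_2, 0.0733 without FT_3, 0.0948 without WT_1 and 0.0748 without WT_2, and it passed in 6 of 15 settings (adjusted p 0.00164 to 0.0948). With total counts alone and with limma on FPKM it also missed the threshold (0.0688 and 0.0568), although its fold change relative to the median of all genes was 0.43 there, the same as under TMM. With the gene length trend removed it missed as well (0.0515), and was at 0.29 relative to the median. The gene PELO, with up to 4433 counts in a library, lies inside ITGA1 on the same strand, and how reads of overlapping genes were counted is not stated, so the level of ITGA1 carries that uncertainty.

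The laminin receptors have ITGA3 and ITGA6 as alpha chains, which in epithelia anchor cells to the basement membrane. ITGA3 (ENSBTAG00000019498, chromosome 19, 36565806 to 36598451) was at 202.12 FPKM in FT_1 and 41.24 and 43.01 in FT_2 and FT_3, and at 19.45, 21.72 and 23.00 in the WT libraries. All FT libraries lay above all WT libraries, and FT_1 was 4.80 times the mean of FT_2 and FT_3. The means were 95.5 ± 92.4 FPKM in FT cells and 21.4 ± 1.80 in WT cells (SD, n = 3), 4.46-fold apart, or 1.97-fold without FT_1. ITGA3 rose (edgeR log2 fold change 2.30, SE 0.67, 95% interval 0.68 to 3.93, adjusted p = 0.0377), and without FT_1 the log2 fold change was 1.15 (SE 0.08, interval 0.97 to 1.33). The adjusted p was 0.128 without WT_1, 0.123 without WT_2 and 0.113 without WT_3, 0.0667 with limma on FPKM, and it ranged from 1.79e-06 to 0.128 over 15 settings, of which 9 passed.

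ITGA6 (ENSBTAG00000017266, chromosome 2, 24091577 to 24179151) was at 75.68 FPKM in FT_1 and 6.46 and 6.48 in FT_2 and FT_3, and at 18.43, 16.22 and 14.48 in WT_1, WT_2 and WT_3. FT_1 lay above every WT library and the other FT libraries below every WT library. The mean of 29.5 ± 39.96 FPKM in FT cells therefore describes none of its libraries (WT 16.4 ± 1.98, SD, n = 3). With all libraries ITGA6 did not pass (edgeR log2 fold change 0.99, SE 0.99, adjusted p = 0.460). Without FT_1 it fell by 1.17 on the log2 scale (SE 0.10), the WT mean being 2.53 times that of FT_2 and FT_3, and the adjusted p ranged from 6.82e-06 to 0.947 over 14 settings, of which only the setting without FT_1 passed.

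ITGA5 and ITGAV belong to the receptors that bind the RGD motif of fibronectin, vitronectin and latent TGF-beta. ITGA5 (ENSBTAG00000013745, chromosome 5, 25662272 to 25683364), the alpha chain of the classical fibronectin receptor, was at 90.95, 68.10 and 70.79 FPKM in FT_1, FT_2 and FT_3 and at 100.80, 100.58 and 95.66 in the WT libraries. In FPKM every FT library was below every WT library, with FT_1 nearest to them, while in TMM-scaled counts FT_1 (436 CPM) lay above WT_3 (419 CPM). The means were 76.6 ± 12.5 and 99.0 ± 2.91 FPKM (SD, n = 3). ITGA5 did not pass with all libraries (edgeR log2 fold change −0.21, SE 0.12, adjusted p = 0.213). Without FT_1 it fell by 0.34 on the log2 scale (SE 0.06, the WT mean 1.43 times that of FT_2 and FT_3), and the adjusted p ranged from 9.29e-04 to 0.459 over 15 settings, of which 3 passed.

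ITGAV (ENSBTAG00000019929, chromosome 2, 9644368 to 9749556), the alpha chain shared by several RGD receptors, was at 26.31, 31.91 and 32.34 FPKM in FT_1, FT_2 and FT_3 and at 38.62, 28.95 and 39.71 in the WT libraries. The groups overlapped, since WT_2 was lower than FT_2 and FT_3. The log2 fold change was −0.08 (edgeR, 95% interval −0.47 to 0.31, adjusted p = 0.706) and 0.02 without FT_1 (interval −0.26 to 0.29), so a difference of up to these bounds in either direction remains possible.

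ITGB1 (ENSBTAG00000015910, chromosome 13, 19971622 to 20014497), the beta chain that most alpha chains need, was at 511.86 FPKM in FT_1 and 575.82 and 589.66 in FT_2 and FT_3, and at 427.10, 417.51 and 391.83 in WT_1, WT_2 and WT_3. All FT libraries were above all WT libraries, and FT_1 was the lowest of the FT libraries. The means were 559 ± 41.5 and 412 ± 18.2 FPKM (SD, n = 3), 1.36-fold higher in FT cells and 1.41-fold higher without FT_1. ITGB1 rose (edgeR log2 fold change 0.60, SE 0.11, 95% interval 0.32 to 0.88, adjusted p = 0.00953), with 0.67 (SE 0.06) without FT_1. It passed in 14 of the 15 settings (adjusted p 6.33e-07 to 0.0571), among them each setting that left out 1 library.

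ITGB3 (ENSBTAG00000009987, chromosome 19, 46329945 to 46392416), which with ITGAV forms the vitronectin receptor, was at 69.26 FPKM in FT_1 and 12.85 and 12.92 in FT_2 and FT_3, and at 29.60, 28.42 and 29.38 in the WT libraries. As for ITGA6, FT_1 lay above and the other FT libraries below all WT libraries. The log2 fold change was 0.26 with all libraries (edgeR, SE 0.68, adjusted p = 0.782), and limma on FPKM put it at −0.34. Without FT_1 ITGB3 fell by 1.01 on the log2 scale (SE 0.06), the WT mean being 2.26 times that of FT_2 and FT_3, and the adjusted p ranged from 9.86e-07 to 0.971 over 15 settings, of which only the setting without FT_1 passed.

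ITGB5 (ENSBTAG00000013755, chromosome 1, 69196881 to 69312128), another vitronectin-binding partner of ITGAV, was at 84.29, 183.40 and 178.42 FPKM in FT_1, FT_2 and FT_3 and at 172.68, 158.94 and 162.42 in the WT libraries. Here FT_1 was the lowest of all libraries and FT_2 and FT_3 the highest, so that FT_2 and FT_3 had 2.15 times the level of FT_1. ITGB5 did not pass with all libraries (edgeR log2 fold change 0.02, SE 0.30, adjusted p = 0.969), and was at −0.14 with total counts alone and −0.23 with limma on FPKM, settings that lowered the median of all genes too. Relative to that median it was at −0.02 with TMM, −0.02 with total counts alone and −0.11 with limma. Without FT_1 it rose (log2 fold change 0.31, SE 0.06, and 1.10-fold in FPKM without rescaling), and the adjusted p ranged from 0.00183 to 0.991 over 15 settings, of which only the setting without FT_1 passed.

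ITGB8 (ENSBTAG00000003709, chromosome 4, 29024090 to 29115760), which with ITGAV binds latent TGF-beta, was the least abundant, at 7.11, 1.88 and 2.27 FPKM in FT_1, FT_2 and FT_3 and at 1.58, 1.53 and 1.45 in the WT libraries. The groups did not overlap, and FT_1 was 3.43 times the mean of FT_2 and FT_3. ITGB8 did not pass with all libraries (edgeR log2 fold change 1.45, SE 0.52, adjusted p = 0.0713), but passed without FT_1 (log2 fold change 0.62, SE 0.16) and without FT_2 (adjusted p = 0.0449), and the adjusted p ranged from 0.00707 to 0.182 over 15 settings, of which 3 passed. Its counts of 229 to 1320 were the lowest of the 10 genes.

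**Figure D3:**
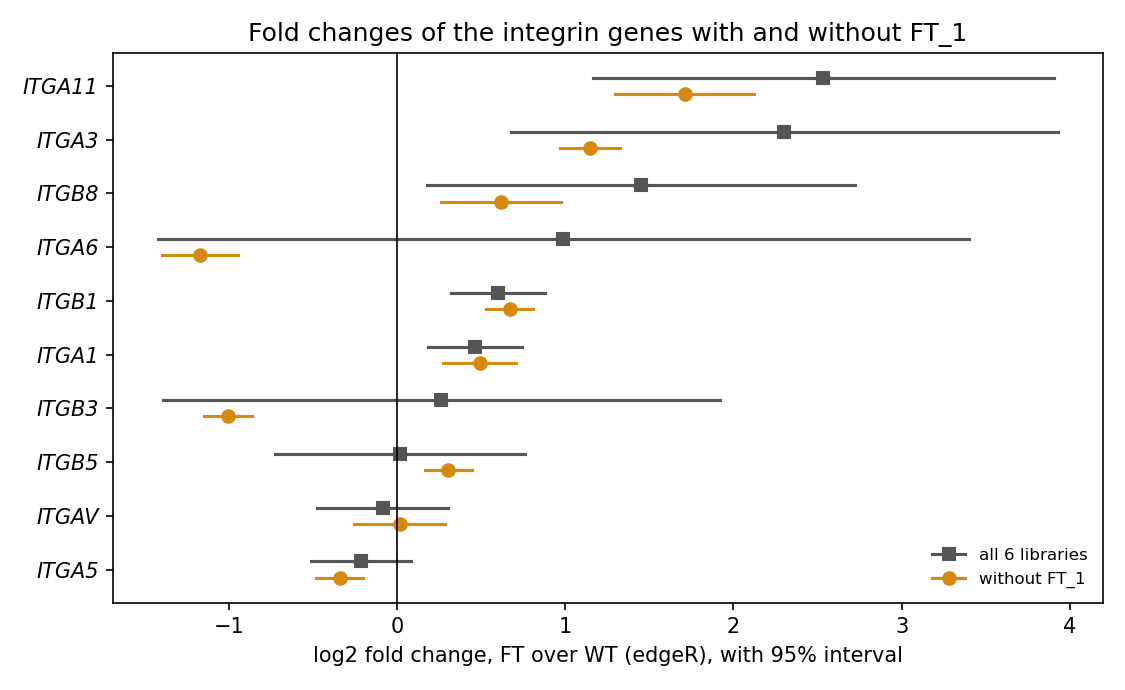
Log2 fold change of FT over WT from edgeR with its 95% interval (horizontal axis) for each integrin gene, with grey squares for all 6 libraries and orange circles without FT_1. ITGA6 moves from 0.99 to −1.17 and ITGB3 from 0.26 to −1.01, while the intervals narrow.

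In WT cells the order of the mean FPKM was ITGB1, ITGB5, ITGA5, ITGA1, ITGAV, ITGB3, ITGA3, ITGA6, ITGA11 and ITGB8, from 412 down to 1.52. Of these neighbours, only ITGAV (35.8 ± 5.92) and ITGB3 (29.1 ± 0.627) overlapped between libraries. In FT cells the order was ITGB1 (559), ITGB5 (148.7 ± 55.8), ITGA3, ITGA5, ITGA1, ITGA11, ITGB3, ITGAV, ITGA6 and ITGB8 (3.75). There only ITGB1 and ITGB5, and ITGA1 and ITGA11, did not overlap with each other, and without FT_1 the order was ITGB1, ITGB5, ITGA1, ITGA5, ITGA3, ITGAV, ITGA11, ITGB3, ITGA6 and ITGB8. FT_1 was the highest or lowest FT library for all 10 genes.

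Integrins work as pairs, so the alpha gene was next set against its beta gene in each library as a log2 ratio of FPKM, for 9 known pairs. A 2-sided exact permutation test of 3 against 3 libraries cannot give a p below 0.10, so no ratio could pass, and the smallest p adjusted over the 9 pairs was 0.18. The groups did not overlap for 5 pairs, and for 8 pairs without FT_1, the exception being ITGA1-ITGB1. These ratios are not independent of each other, since most pairs share ITGB1 and several share ITGAV. Of single genes, 58.7% and 77.2% did not overlap in FPKM with and without FT_1, and all gene pairs were not counted. In all 6 libraries the alpha gene was the less abundant of the pair in 7 pairs, ITGB8 was less abundant than ITGAV, and for ITGAV-ITGB3 it differed between libraries.

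For the fibronectin receptor, the log2 ratio of ITGA5 to ITGB1 was −2.49 in FT_1 and −3.08 and −3.06 in FT_2 and FT_3, against −2.08, −2.05 and −2.03 in the WT libraries. The ratio was lower in every FT library, by a mean of −0.82 (exact permutation p = 0.1, adjusted p = 0.18), and by −1.01 without FT_1. The ratio of ITGAV to ITGB1 was also lower in every FT library, averaging −4.22 ± 0.06 in FT cells and −3.54 ± 0.28 in WT cells (SD, n = 3, exact permutation p = 0.1, adjusted p = 0.18), and the difference was −0.68 with and −0.64 without FT_1. By itself ITGAV overlapped between groups in FPKM, while ITGB1 was higher in every FT library, so this ratio largely repeats the rise of ITGB1.

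Among the collagen receptors, the log2 ratio of ITGA11 to ITGB1 was −2.86, −4.75 and −4.87 in FT_1, FT_2 and FT_3 and −5.80, −6.40 and −5.48 in the WT libraries. It was higher in every FT library, by 1.73 on average (exact permutation p = 0.1, adjusted p = 0.18) and by 1.08 without FT_1. The ratio of ITGA1 to ITGB1 overlapped, at −2.95 ± 0.08 in FT cells and −2.82 ± 0.24 in WT cells (SD, n = 3, exact permutation p = 0.7, adjusted p = 1.0). ITGA1 and ITGB1 were both higher in FT cells, which left their ratio close to that of WT cells, and without WT_3 the small difference of −0.13 changed sign (0.01).

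The laminin receptor pairs differed from each other. The log2 ratio of ITGA3 to ITGB1 was −1.34 in FT_1 and −3.80 and −3.78 in FT_2 and FT_3, and −4.46, −4.27 and −4.09 in the WT libraries. It was higher in every FT library, by 1.3 with FT_1 (exact permutation p = 0.1, adjusted p = 0.18) and by 0.48 without it. For ITGA6 to ITGB1 the ratio was −2.76 in FT_1 and −6.48 and −6.51 in FT_2 and FT_3, against −4.53, −4.69 and −4.76 in the WT libraries. FT_1 and the other FT libraries lay on opposite sides of the WT libraries, with a mean difference of −0.59 (exact permutation p = 0.8, adjusted p = 1.0) that was −1.83 without FT_1, 0.03 without FT_2 and 0.04 without FT_3.

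ITGAV has 3 further partners in the list. Its log2 ratio to ITGB3 was −1.40 in FT_1 and 1.31 and 1.32 in FT_2 and FT_3, and 0.38, 0.03 and 0.43 in WT_1, WT_2 and WT_3. ITGAV thus exceeded ITGB3 in all libraries but FT_1, and the mean difference was 0.13 (exact permutation p = 1.0, adjusted p = 1.0), with 1.04 without FT_1, −0.32 without FT_2 and −0.32 without FT_3. The ratio to ITGB5 overlapped, at −2.22 ± 0.47 in FT cells and −2.22 ± 0.22 in WT cells (SD, n = 3, exact permutation p = 0.9, adjusted p = 1.0), and the difference of −0.01 was −0.28 without FT_1, and above 0 without FT_2, FT_3, WT_1 or WT_3 (0.02 to 0.15). The ratio to ITGB8 was 1.89, 4.09 and 3.83 in FT_1, FT_2 and FT_3 and 4.61, 4.24 and 4.78 in the WT libraries. This last ratio was lower in every FT library, by a mean of −1.27 (exact permutation p = 0.1, adjusted p = 0.18) and by −0.58 without FT_1.

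**Figure D4:**
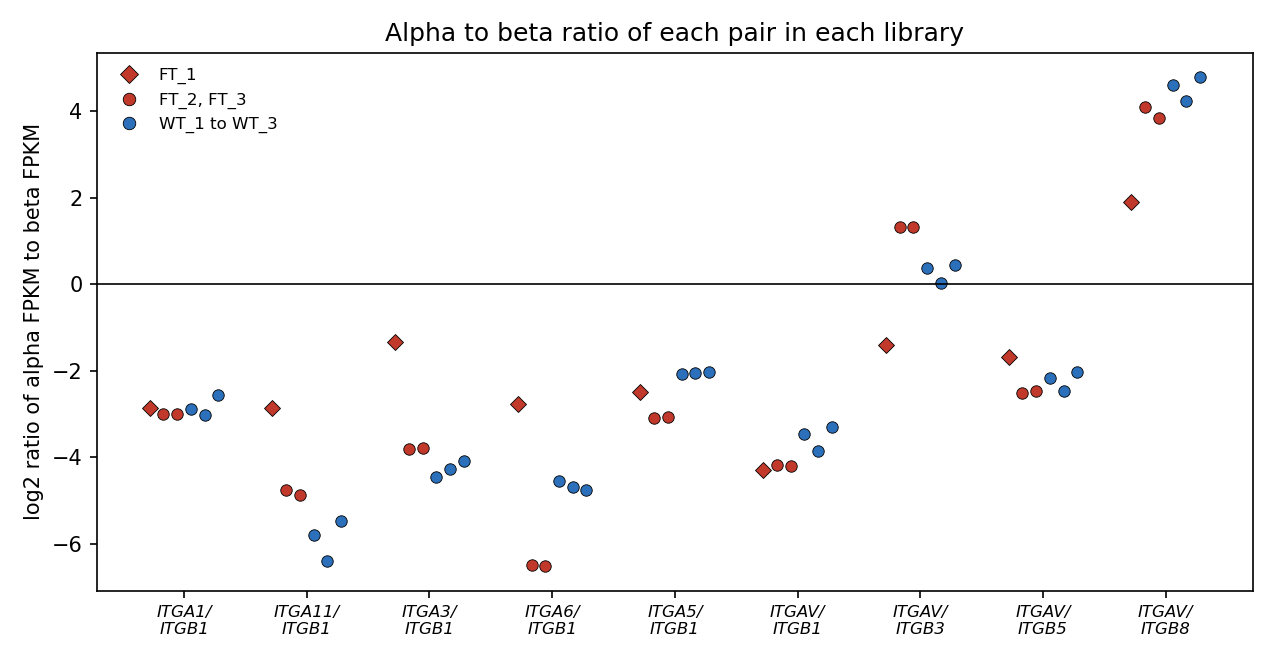
Log2 ratio of alpha FPKM to beta FPKM (vertical axis) for 9 integrin pairs in each library, with red diamonds for FT_1, red circles for FT_2 and FT_3 and blue circles for the WT libraries. The ITGA5 to ITGB1 ratio lies between −3.08 and −2.49 in FT cells, below the WT libraries at −2.08 to −2.03.

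The 6 alpha genes of the list that pair with ITGB1 were described by the share of each in their summed FPKM, which leaves out partner genes that are not among the 10, ITGA8 above all. This sum was 536 FPKM in FT_1 and 241 and 247 in FT_2 and FT_3, and 243, 224.0 and 248 in the WT libraries, so FT_1 differed from all others. In WT cells ITGA5 held the largest share, 41.7 ± 3.18%, followed by ITGA1 at 24.5 ± 2.0% (SD, n = 3). The share of ITGA5 was 16.95% in FT_1 and 28.3% and 28.6% in FT_2 and FT_3, below its 41.5%, 44.9% and 38.6% in the WT libraries. In FT_1 the lower share came mostly with the larger sum, since ITGA5 was at 90.95 FPKM there, against 95.66 to 100.8 in the WT libraries. In FT_2 and FT_3, where the sum was within the range of the WT libraries, ITGA5 was at 68.1 and 70.79 FPKM. The share of ITGA3 was 37.7% in FT_1 and 17.1% and 17.4% in FT_2 and FT_3, and 8.02%, 9.70% and 9.27% in the WT libraries. ITGA11 likewise held 13.2%, 8.90% and 8.16% in FT_1, FT_2 and FT_3 and 3.17%, 2.21% and 3.54% in the WT libraries. For each of ITGA5, ITGA3 and ITGA11 the groups did not overlap (2-sided exact permutation p = 0.1, adjusted p = 0.2 over 10 shares).

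The shares of ITGA1 and ITGA6 differed between FT_1 and the other FT libraries. ITGA1 held 13.2% in FT_1 but 29.8% in FT_2 and 30.1% in FT_3, the largest share of the 6 genes in both, against 23.8%, 23.0% and 26.8% in the WT libraries. ITGA6 held 14.1% in FT_1 and 2.68% and 2.62% in FT_2 and FT_3, and 7.60%, 7.24% and 5.84% in the WT libraries. For ITGAV the shares were 4.91%, 13.2% and 13.1% in FT_1, FT_2 and FT_3, and 15.9%, 12.9% and 16.0% in the WT libraries. Each of these overlapped between groups (exact permutation p = 1.0 for ITGA1 and for ITGA6, and p = 0.3 for ITGAV). The difference in the share of ITGA1 was −0.15 percentage points with all libraries, 5.44 without FT_1 and 0.99 without WT_3, and that of ITGA6 was −0.42, 1.47 without FT_2 and 1.5 without FT_3.

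The shares were also taken over 12 alpha genes that pair with ITGB1, with ITGA2, ITGA4, ITGA7, ITGA8, ITGA9 and ITGA10 added, a choice made after seeing the data. ITGA8 then held 4.38% in FT_1 and 31.5% and 31.0% in FT_2 and FT_3, the largest share in those 2 libraries, and 2.97%, 2.55% and 3.29% in the WT libraries. ITGA1 held 12.5%, 20% and 20.3% in FT_1, FT_2 and FT_3, now below its 22.6%, 21.9% and 25.3% in the WT libraries, and without FT_1 its difference was −3.11 percentage points in place of 5.44. The FPKM of ITGA1 itself was higher in every FT library, so its lower share came with the larger sum. That sum was 566, 359 and 366 FPKM in FT_1, FT_2 and FT_3 and 256, 235 and 263 in the WT libraries. The share of ITGAV, too, no longer overlapped between groups (4.64%, 8.88% and 8.83% in FT cells, 15.1%, 12.3% and 15.1% in WT cells). For ITGA5, ITGA3 and ITGA11 the differences of −21.4, 11.1 and 5.16 percentage points kept the direction found with 6 genes (−17.05, 15.07 and 7.10), and the groups again did not overlap (exact permutation p = 0.1, adjusted p = 0.17 over 17 shares). Without FT_1 these differences were −20.4, 3.07 and 2.92 over 12 genes, and −13.2, 8.26 and 5.56 over 6 genes.

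Among the beta genes that pair with ITGAV, ITGB1 held most of the summed FPKM, 75.3 ± 0.855% in FT cells and 67.8 ± 0.949% in WT cells (SD, n = 3). FT_1 (76.1%) was close to FT_2 (74.4%) and FT_3 (75.3%), and all were above the WT libraries (exact permutation p = 0.1, adjusted p = 0.2). The share of ITGB5 was 12.5%, 23.7% and 22.8% in FT_1, FT_2 and FT_3, below the 27.4%, 26.2% and 27.8% of the WT libraries (exact permutation p = 0.1, adjusted p = 0.2). In FT_2 and FT_3 the lower share did not come with less ITGB5 RNA, since its FPKM there was above that of the WT libraries. In FT_1 it did, with ITGB5 at 84.29 FPKM, below every WT library. ITGB3 held 10.3% in FT_1 and 1.66% and 1.65% in FT_2 and FT_3 and 4.69%, 4.69% and 5.02% in the WT libraries, and its difference of −0.26 percentage points turned to 1.17 without FT_2 and 1.18 without FT_3 (exact permutation p = 1.0). ITGB8 held 1.06% in FT_1 and at most 0.290% in any other library (exact permutation p = 0.4, adjusted p = 0.571).

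**Figure D5:**
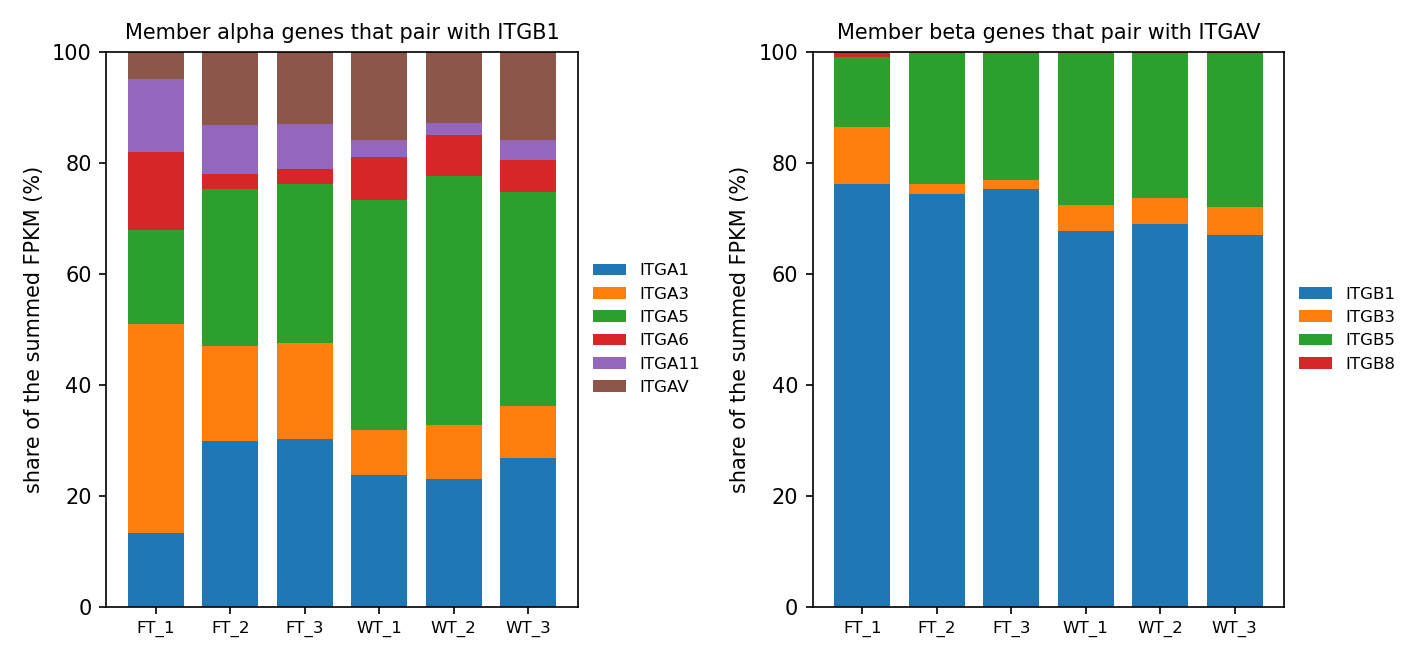
Share of each gene in the summed FPKM (vertical axis, percent) of 6 alpha genes that pair with ITGB1 (left, without ITGA8 and other partners outside the 10 genes) and of 4 beta genes that pair with ITGAV (right), with 1 bar for each library. ITGA5 holds 41.7% on average in WT cells and 16.95% to 28.6% in FT cells. The sum behind the left bars was 536 FPKM in FT_1 and 224.0 to 248 in the other libraries.

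The other integrin genes were described from a list of 16, of which 12 were in the table and 10 were tested. In FT cells 1 rose, ITGA8, and 3 fell, ITGA4, ITGB7 and ITGAE, against 20.1% and 18.9% of all genes, and without FT_1 3 rose and 4 fell of 11 tested, against 30.6% and 31.5%. ITGA8, the alpha chain of an RGD receptor that pairs with ITGB1, was at 24.81 FPKM in FT_1 and 113.33 and 113.76 in FT_2 and FT_3, and at 7.59, 6.0 and 8.63 in the WT libraries. Its level exceeded that of WT cells in every FT library and was lowest of these in FT_1 (edgeR log2 fold change 3.67, SE 0.62, adjusted p = 0.00641, and 4.11 without FT_1). ITGA4, which pairs with ITGB1 or ITGB7 and binds VCAM1 and fibronectin, was near 0 in FT cells, at 0.01, 0.05 and 0.10 FPKM, and at 1.94, 1.26 and 1.68 in WT cells (log2 fold change −4.70, adjusted p = 0.00373, and −4.23 without FT_1). ITGB7 was at 0.59, 0.78 and 0.50 FPKM in FT cells and 1.44, 1.57 and 1.73 in WT cells (log2 fold change −1.18, adjusted p = 0.0127, and −1.14 without FT_1), a call lost without WT_2 (0.0505) and without WT_3 (0.0531). ITGAE, another partner of ITGB7, was at 2.12, 2.54 and 2.69 FPKM in FT cells and 4.55, 5.10 and 4.57 in WT cells (log2 fold change −0.79, adjusted p = 0.00663, and −0.68 without FT_1).

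ITGB4, which with ITGA6 forms the laminin receptor of hemidesmosomes, was at 40.92 FPKM in FT_1, 0.65 in FT_2, 0.58 in FT_3 and 0.36, 0.39 and 0.24 in the WT libraries. It did not pass with all libraries (edgeR log2 fold change 5.53, adjusted p = 0.0618), and rose without FT_1 (1.06, adjusted p = 0.0038). ITGB6, found in epithelia, was at 1.44 FPKM in FT_1 and 0 elsewhere, and ITGA2 was at 3.26 FPKM in FT_1 and at most 0.17 in the others. ITGA2, ITGA2B, ITGA7, ITGA9 and ITGA10 passed the count filter but not the test with all libraries, and without FT_1 ITGA7 rose (log2 fold change 1.02, adjusted p = 2.06e-04) and ITGA9 fell (−0.63, adjusted p = 0.00979). With all libraries ITGAM and ITGB6 did not pass the filter (ITGAM was tested without FT_1 and did not pass, adjusted p = 0.765), and ITGAD, ITGAL, ITGAX and ITGB2 were not analysed here.

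The ligands of these receptors were taken from a list of 42 gene symbols, of which 38 were tested. CYR61 and CTGF in that list are older names of CCN1 and CCN2. In FT cells 12 rose and 1 fell (20.1% and 18.9% of all genes), with a median log2 fold change of 0.88 (all genes 0.03), and without FT_1 24 rose and 6 fell (30.6% and 31.5% of all genes), with a median of 0.67 (all genes −0.02). FN1, which encodes fibronectin, the ligand of ITGA5-ITGB1, was at 7499.22 FPKM in FT_1 and 1779.76 and 1830.53 in FT_2 and FT_3, and at 284.28, 239.10 and 304.22 in the WT libraries. All FT libraries were above all WT libraries, most of all FT_1 (edgeR log2 fold change 3.89, SE 0.67, adjusted p = 0.00668, and 2.88 without FT_1). LAMA5, a laminin chain bound by ITGA3 and ITGA6 receptors, was at 21.00, 4.92 and 4.94 FPKM in FT cells and 0.36, 0.26 and 0.52 in WT cells (log2 fold change 4.89, adjusted p = 0.00438, and 3.86 without FT_1). FBN1, the microfibril protein fibrillin, was the 1 ligand that fell, from 293.94, 248.66 and 300.26 FPKM in WT cells to 159.45, 154.91 and 166.50 in FT cells (log2 fold change −0.65, adjusted p = 0.00913, and −0.64 without FT_1). The vitronectin gene VTN was not analysed here.

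Inside the cell, 42 genes of integrin activation and the adhesion complex were tested, and 17 rose and 5 fell (median log2 fold change 0.35), beside 20.1% and 18.9% of all genes, with 26 and 10 without FT_1 (median 0.42), beside 30.6% and 31.5%. The number passing was 22 with all libraries (5261 of all genes), 36 without FT_1 (8552), 12 without WT_1 (3047), 14 without WT_2 (3183) and 13 without WT_3 (3537). TLN1, which encodes the talin that binds beta tails, was at 156.77, 151.19 and 144.66 FPKM in FT cells and at 94.20, 91.15 and 103.84 in WT cells. The groups did not overlap and FT_1 was close to FT_2 and FT_3 (edgeR log2 fold change 0.80, SE 0.10, adjusted p = 0.00224, and 0.79 without FT_1). FERMT2, the kindlin gene of fibroblasts, was lower in every FT library, at 126.12, 109.26 and 111.17 against 154.44, 157.32 and 152.12 FPKM, and did not pass with all libraries (log2 fold change −0.26, adjusted p = 0.0528), nor without any library other than FT_1 (0.121 to 0.157). It passed without FT_1 (0.00104) and in DESeq2 (0.0162). It also passed with total counts alone (0.015) and with limma on FPKM (0.00948), where all genes were shifted and its fold change relative to their median was −0.30, as under TMM. ILK, an adaptor of the beta tail, was at 172.96 FPKM in FT_1 and 247.96 and 225.19 in FT_2 and FT_3, and at 187.10, 197.47 and 200.46 in WT cells, and did not pass (log2 fold change 0.30, adjusted p = 0.164), but passed without FT_1 (log2 fold change 0.45). PTK2, the focal adhesion kinase gene, passed by a small margin (log2 fold change 0.25, adjusted p = 0.0341, every FT library above every WT library). That call was kept without FT_1 and lost without each other library (0.0767 to 0.148). With total counts alone (0.312) and with limma on FPKM (0.334) it did not pass, although its fold change relative to the median of all genes was 0.21 or 0.22 there, as under TMM.

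The adhesion genes with the largest rises were the docking protein gene NEDD9, at 50.07, 42.06 and 44.17 FPKM in FT cells and 12.04, 10.51 and 12.66 in WT cells, and the LIM protein gene CSRP1. NEDD9 rose by a similar amount with FT_1 (edgeR log2 fold change 2.11, SE 0.11, adjusted p = 5.23e-04) and without it (2.05). CSRP1 was at 273.57, 489.89 and 499.24 FPKM in FT cells and 134.46, 135.10 and 137.83 in WT cells (log2 fold change 1.80, adjusted p = 0.00349). Of the 5 adhesion genes that fell with all libraries, APBB1IP and RAP1B fell most. APBB1IP, whose product RIAM brings talin to the membrane, was at 1.11, 1.0 and 0.81 FPKM in FT cells and 4.03, 3.53 and 3.83 in WT cells (log2 fold change −1.80, adjusted p = 0.00132), and RAP1B fell by 0.57 on the log2 scale (adjusted p = 0.00472, lower in every FT library). Without FT_1 they fell by 1.89 and 0.52, and PTK2B (−2.10), TLN2 (−1.56) and LPXN (−1.42), which did not pass with all libraries, fell by more than RAP1B.

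Of 16 tested genes for inhibitors and trafficking of integrins, 3 rose and 6 fell (median log2 fold change −0.07), where 20.1% of all genes rose and 18.9% fell, and without FT_1 4 rose and 9 fell (median −0.29), where 30.6% and 31.5% did. The number passing was 9 with all libraries (5261 of all genes), 4 without WT_1 (3047) and 5 without WT_2 (3183). SHARPIN, an inhibitor that binds alpha tails, rose from 6.10, 5.71 and 5.61 FPKM in WT cells to 10.00, 9.74 and 9.19 in FT cells (edgeR log2 fold change 0.89, adjusted p = 0.00138). RASA1, which competes with RAB21 for alpha tails, rose (log2 fold change 0.77, adjusted p = 0.0207, every FT library above every WT library), a call lost without WT_1 (0.081) and WT_2 (0.0778). RAB21, a carrier of internalised ITGB1 receptors, fell by 0.80 on the log2 scale, from 16.87, 13.54 and 13.69 FPKM in WT cells to 6.93, 7.86 and 7.83 in FT cells (adjusted p = 0.0047). CLTC, the clathrin heavy chain gene of endocytosis, fell by 0.77 on the log2 scale (adjusted p = 0.00302, lower in every FT library).

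Among 16 tested genes for membrane partners, 5 rose and 2 fell (median log2 fold change 0.14), against 20.1% and 18.9% of all genes, with 7 and 6 without FT_1 (median 0.17), against 30.6% and 31.5%. The number passing was 7 with all libraries (5261 of all genes), 13 without FT_1 (8552), 4 without WT_1 (3047) and 4 without WT_3 (3537). CD151, the tetraspanin that binds ITGA3 and ITGA6 receptors, was at 116.79, 59.96 and 62.01 FPKM in FT cells and 32.82, 32.54 and 34.08 in WT cells. It rose with FT_1 highest, as ITGA3 did (edgeR log2 fold change 1.42, SE 0.27, adjusted p = 0.00899, and 1.05 without FT_1). SDC1, a heparan sulfate co-receptor, was at 83.04, 40.49 and 39.70 FPKM in FT cells and 23.28, 23.47 and 23.07 in WT cells (log2 fold change 1.38, adjusted p = 0.0142), and its call was lost without each WT library (0.0589 to 0.0619). CAV1, the caveolin gene linked to integrin uptake, fell from 1003.98, 1041.97 and 988.28 FPKM in WT cells to 188.16, 253.86 and 267.42 in FT cells (log2 fold change −1.93, SE 0.17, adjusted p = 0.00105). CD47, a partner of ITGAV-ITGB3, fell by 0.41 on the log2 scale (adjusted p = 0.0187, lower in every FT library), and the call was lost without FT_2 (0.0665), FT_3 (0.0617), WT_1 (0.0779) and WT_3 (0.0649).

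Markers of further cell types that the tissue could hold were read beside these results. Smooth muscle markers moved with genotype, with 6 of 7 rising (20.1% of all genes), 7 without FT_1 (30.6%), and a summed FPKM of 2322, 3558 and 3421 in FT cells and 1104, 1086 and 1213 in WT cells. ACTA2 was the most abundant of them in all libraries but WT_2, where TAGLN was, CNN1 was at 205.04, 261.20 and 258.12 FPKM in FT cells and 29.27, 38.74 and 29.73 in WT cells (edgeR log2 fold change 3.05, adjusted p = 5.23e-04), and DES was at 5.74, 4.01 and 3.17 FPKM in FT cells but 0.07, 0 and 0 in WT cells. MYH11, the defining smooth muscle myosin, was low throughout, at 0.07, 1.58 and 1.46 FPKM in FT cells and 0.15, 0.12 and 0.18 in WT cells. The mesothelial markers summed to 205.9, 45.1 and 46.3 FPKM in FT cells and 2.35, 3.48 and 3.34 in WT cells. Nearly all of this was MSLN, the 1 of 2 tested that passed, where 20.1% of all genes rose (log2 fold change 5.26, adjusted p = 0.00346, every FT library higher). The mesothelial gene WT1 was at 0 in the FT libraries. The part of smooth muscle or mesothelial cells in the integrin values was not tested.

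The remaining marker lists were low. Blood and macrophage markers summed to 5.17, 10.3 and 9.78 FPKM in FT cells and 24.65, 23.1 and 23.2 in WT cells, and LAPTM5 was the most abundant in all libraries but FT_1, where CD14 was. Of 4 of them tested, CD68 fell (log2 fold change −1.24, edgeR adjusted p = 0.0185, lower in every FT library). That call was lost without FT_2 (0.0595), WT_1 (0.0768), WT_2 (0.0638) and WT_3 (0.0554). Without FT_1, 3 of them fell. Of all genes 18.9% fell, and 31.5% without FT_1, the shares to set beside this list and the lists below. Cartilage markers summed to at most 2.33 FPKM, with SOX9 most abundant in FT cells, ACAN in WT cells and COL2A1 at 0 in all libraries but FT_1, and ACAN was the 1 of 2 that fell (log2 fold change −2.26, adjusted p = 0.0395, lower in every FT library), a call lost without FT_2 (0.0891) and without each WT library (0.0931 to 0.115). Endothelial markers summed to at most 1.52 FPKM, skeletal muscle markers to at most 1.93, mostly MYF5, and neural crest and Schwann markers to at most 0.15. In edgeR 0 of 3, 0 of 1 and 0 of 1 tested genes of these lists passed, and 0 had an unadjusted p under 0.05. DESeq2 passed 0 in each with 2 endothelial genes at an unadjusted p under 0.05, limma on FPKM, which tested 1 gene of these lists, passed it (MYF5), and without FT_1 edgeR passed PECAM1 and MYF5.

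The genes whose profile over the 6 libraries was most like that of a member were sought next. They came from the 10307 genes with a symbol that averaged 1 FPKM or more, by root mean square difference of centred log2 values. For ITGB1 these were GPS2 (0.03), LRRCC1 (0.04) and SCAMP3 (0.04), GPS2 being at 22.14, 26.43 and 26.74 FPKM in FT cells and 18.33, 18.32 and 16.69 in WT cells. For ITGA11, the member with the largest rise with and without FT_1, they were SFRP1 (0.16), ARHGEF5 (0.21) and FLRT3 (0.21). SFRP1 shared the high level in FT_1, at 55.17 FPKM against 15.55 and 12.81 in the other FT libraries and 5.36, 4.37 and 5.53 in WT cells. For ITGA5, the member with the lowest fold change with all libraries (without FT_1 ITGA6 and ITGB3 were lower), they were ABCE1 (0.02), HNRNPLL (0.03) and DDX21 (0.03), with ABCE1 at 27.29, 20.73 and 21.87 FPKM in FT cells and 31.06, 31.60 and 28.59 in WT cells.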

How the data were processed

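Poly(A) RNA from 6 bEF cultures (3 FT, 3 WT) was sequenced. Per the submitters' processing notes, Bowtie 0.12.2, HISAT2 2.0 and StringTie 1.3.0 were used, and the genome build named there is a mouse build, mm8. The cattle build and annotation release are not given in the sources used here; in the table, the coordinates of 99.87% of 13422 genes matched by symbol overlap the RefSeq spans of the same genes, all 10 members included. The FPKM values were deposited by the authors, 1 column per library, scaled by gene length and library total. The raw counts were deposited by the authors in the same table, and no value column was left unmapped. Strand and the handling of overlapping genes are not stated.

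Counts were tested with edgeR 4.0.16 in R 4.3.3 (TMM, filterByExpr with a minimum count of 10, quasi-likelihood test by group, Benjamini-Hochberg over all genes, threshold 0.05), and the steps were tested on simulated data. The simulated counts for the fits had the same spread for all genes and no library apart from its group. They do not show how the fits behave with a library such as FT_1. Total counts per library ranged from 48167642 to 69777641. Pair ratios and shares used a 2-sided exact permutation test in scipy 1.17.1 (Python 3.11.15), adjusted over 9 pairs and 10 shares (17 with all partner genes in the sums). Alternatives were other scalings, a gene length trend, DESeq2 1.42.0, limma 3.58.1 on log2(FPKM + 1) and log2(FPKM + 0.1) restricted to mean FPKM values of 0.5 or more, no count filter, a replicate block, and each library left out. Beside the members, the genes named from each list are the 2 largest rises and 2 largest falls that passed without overlap of the groups, and FN1, VTN, TLN1, FERMT2, ILK, PTK2 and all other integrin genes regardless. ITGB4, ITGB6, ITGA2, VIM, MYH11, KRT5 and other markers given by value alone were added for their levels, and PTK2B, TLN2 and LPXN for their falls without FT_1. COL1A1, COL1A2, COL3A1 and THY1 stand in the fibroblast list and in another list. Members and lists were chosen with earlier results of these data known.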

Additional observations from a re-analysis of the deposited data

How the results depend on the processing

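Over the alternatives run, 139 fold changes of the 10 members were computed: 96 kept direction and side of the threshold, 19 lost the call, 7 gained it and 17 changed direction. Those that changed direction were counted only as such, among them ITGA6 and ITGB3 without FT_1, which also gained the call. ITGB5 turned to −0.14 with total counts alone, −0.068 with the gene length trend removed, −0.23 with limma on log2(FPKM + 1), −0.23 on log2(FPKM + 0.1) and −0.066 with the replicate block. In the last 3 of these settings ITGA6 was at −0.092, −0.14 and −0.087 and ITGB3 at −0.34, −0.37 and −0.25. Relative to the median of all genes (0.034, −0.12 with total counts or limma, −0.15 with the smaller pseudocount), ITGB5 was at −0.017 with all libraries and TMM and stayed below 0 in these 5 settings, ITGA6 stayed above 0 with limma (0.032 and 0.009) but not with the block (−0.076), and ITGB3 turned in all 3. Genes past the study's threshold fell from 2586 to 1488 with limma on log2(FPKM + 1) (462 up, 1026 down) and to 2200 on log2(FPKM + 0.1) (749 up, 1451 down), against 1378 up and 1208 down in edgeR and 1087 up and 1571 down with total counts alone. Members passing were 4 with RLE scaling (5258 of 13482 genes), 3 with total counts alone (5448 of 13482) and 3 with the length trend removed (5169 of 12628). In DESeq2 5 of 9 passed (6230 of 17263 genes), with no adjusted p for ITGA6, a count outlier. With limma 3 passed at either pseudocount (5410 and 5409 of 12247 genes), and 4 passed without the filter (4840 of 17663). With the replicate block 1 member passed (ITGB1 missed at 0.0571), beside 3579 of 13482 genes. The replicate numbers do not pair the fetuses, however: correlations of same-numbered FT and WT libraries were −0.001, −0.02 and 0.018.

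Leaving out each library in turn gave 3047 to 8552 passing genes and 1 to 9 passing members. The log2 fold change ranged from −1.17 to 1.46 for ITGA6, −1.01 to 0.63 for ITGB3, −0.22 to 0.015 for ITGAV and −0.16 to 0.31 for ITGB5. The pair difference ranged from −0.22 to 0.0061 for ITGA1-ITGB1, −1.83 to 0.042 for ITGA6-ITGB1, −0.32 to 1.04 for ITGAV-ITGB3 and −0.28 to 0.15 for ITGAV-ITGB5. The share difference in percentage points ranged from −3.02 to 5.44 for ITGA1, −4.24 to 1.5 for ITGA6 and −3.14 to 1.18 for ITGB3. Over all alternatives, pair ratios kept direction in 63 and turned in 9, and shares kept it in 84 and turned in 6, those with partner genes outside the 10 added to the sums (chosen after seeing the data) among them. The cause was not tested. List counts and counts of groups that do not overlap, with libraries left out, were chosen after seeing the data. Of the 25 genes named from the other lists as their largest passing rises and falls, 25 passed without FT_1, 22 without FT_2, 24 without FT_3 and 20 without each WT library. Genes named only regardless of that rule were not counted, such as PTK2, whose call was lost without each library other than FT_1.

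Group sizes of 3 keep exact tests at 0.10 or above, FT_1 differs from FT_2 and FT_3 in many genes, and RNA was measured without protein. The lowest member count, 229, has an exact Poisson 95% interval of 200.3 to 261, which covers counting error only.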

Other observations

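Some genes outside the lists carry integrin names or bind integrin tails, and were chosen after their values were seen. ITGBL1, a secreted protein gene with similarity to beta chains, was at 53.33 FPKM in FT_1 and 2.05 and 2.35 in FT_2 and FT_3, and at 25.58, 20.81 and 27.07 in WT_1, WT_2 and WT_3. FT_1 lay above and the other FT libraries below all WT libraries, as for ITGA6 and ITGB3 (edgeR log2 fold change −0.21, adjusted p = 0.906, and −3.30 without FT_1). ITFG1 rose, at 59.58, 47.92 and 47.51 FPKM in FT cells and 37.84, 38.62 and 37.31 in WT cells (log2 fold change 0.60, adjusted p = 0.00615), and so did ITFG2 (log2 fold change 0.69, adjusted p = 0.00736, every FT library higher). CIB1, CIB2 and ITGB3BP did not pass with all libraries (log2 fold change 0.24, −0.10 and 0.12), and CIB1 rose without FT_1 (0.35, adjusted p = 0.00318).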
